A study of Mus musculus with 6 samples.

Results

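The genes described are 10 secreted cytokines and colony-stimulating factors, Il6, Il10, Il12a, Il12b, Il23a, Il27, Osm, Csf1, Csf2 and Csf3, chosen by gene symbol from the 38739 rows of the expression table. All 10 were in the table and all 10 exceeded 0 somewhere, which made them part of the 23049 genes tested. The samples were peritoneal neutrophils of cGAS-/- mice (labelled cGAS knockout, strain C57B/L6), kept for 2 h in medium alone (untreated, 3 samples) or with LPS from E. coli at the labelled 500 ng/mL (3 samples). LPS is the bacterial endotoxin that cells sense through TLR4. The mice were male and 8 weeks old, the cells were washed out of the peritoneum 2 h after an injection of 3% thioglycolate, and no sorting step is described. Every sample carries the deletion of the cytosolic DNA sensor cGAS and no wild-type sample was analysed here, so the differences are those of LPS within cGAS-/- cells. Nothing in the labels says whether the 3 samples of a group came from separate mice, and p-values measure the spread between these samples, which may be technical.

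Neutrophils that sense LPS switch on cytokine genes through NF-κB, AP-1 and C/EBP factors, and the messages are short-lived. IL-6 and oncostatin M (Osm) signal through receptors that share the gp130 chain. IL-12, IL-23 and IL-27 are each made of a pair of chains: Il12b encodes the chain shared by IL-12 and IL-23, Il12a and Il23a encode their own partners, and Il27 encodes a chain of IL-27. IL-10 dampens inflammation, whereas the colony-stimulating factors M-CSF (Csf1), GM-CSF (Csf2) and G-CSF (Csf3) drive the growth and survival of macrophages and granulocytes.

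The promoters of Il6, which passed the limits of the study, and of Csf1, the gene with a negative difference, are shown because both hold the letters that NF-κB is known to bind. Each run is the 250 bases before the start of the canonical transcript on GRCm39, read 5′ to 3′ on the strand of the gene: chr5:30217862-30218111 (plus strand) and chr3:107667807-107668056 (minus). Capitals mark matches, on either strand, to the κB consensus of NF-κB and to the C/EBP letters TTGCNNAA.
Il6: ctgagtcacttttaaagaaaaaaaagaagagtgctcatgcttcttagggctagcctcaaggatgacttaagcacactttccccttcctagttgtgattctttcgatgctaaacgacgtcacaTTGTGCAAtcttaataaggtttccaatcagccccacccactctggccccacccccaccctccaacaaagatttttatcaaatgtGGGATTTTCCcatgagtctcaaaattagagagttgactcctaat
Csf1: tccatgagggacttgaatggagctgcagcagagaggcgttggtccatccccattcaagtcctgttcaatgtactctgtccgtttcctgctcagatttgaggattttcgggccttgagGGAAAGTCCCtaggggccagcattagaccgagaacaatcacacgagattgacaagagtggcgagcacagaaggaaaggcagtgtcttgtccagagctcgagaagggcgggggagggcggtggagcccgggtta

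Il6 held 1 κB match, from 44 to 35 bases before the start, and 1 C/EBP match from 128 to 121. Csf1 held 1 κB match from 133 to 124 bases before the start. Among the 8 genes whose promoters were searched (all but Il10 and Csf3), 3 held a κB match (Il6, Il23a and Csf1), and 5.17% of 21757 promoters of the same length did. A C/EBP match was found in 1 of the 8 genes and in 9.34% of the promoters. A match to the AP-1 letters TGANTCA was found in 3 (Il6, Il12a and Il23a) and in 6.18%. None of these matches overlapped another. A κB match stood both in Il6 and in Csf1, which did not pass the limits. A match describes letters and is not a binding site.

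The values are called scaled TPM here: TPM, a measure of transcript abundance per length and library, taken as the mean of a gene's transcripts and rescaled once per sample. The number of reads cannot be recovered from them, so the depth is unknown. Genes above 0 numbered 15800, 15419 and 15607 in the untreated samples and 18518, 16148 and 19191 in the LPS samples. The number was higher in every LPS sample, and its part in the results was not tested. Summed over the table, the samples held 603599 to 713384 when untreated and 404675 to 465904 after LPS. Cells were checked against marker lists. Of 15 neutrophil markers listed, 13 were in the table, without Ly6g and Retnlg. All 13 were above 0 in every sample, with summed values of 10574 to 30416 (untreated) and 19139 to 59824 (LPS), led by S100a8 and S100a9. Markers of other cells were also present. Of 17 macrophage and monocyte markers listed, 13 were in the table, without Adgre1, Csf1r, Vsig4 and Gata6. The 6 B cell markers summed to 144 to 548 untreated and 67.8 to 241 after LPS, and the 13 macrophage and monocyte markers to 32.1 to 134 and 69.3 to 137. Apoe made up much of the latter sum, at 14.8 to 86.4 untreated and 26.0 to 72.6 after LPS. C1qb, a complement gene of tissue macrophages, was listed at 2.85, 0.712 and 4.75 untreated and at 23.9, 17.3 and 18.0 after LPS. Its log2 difference of 2.62 (limma, unadjusted p = 0.00192, adjusted p = 0.064) passed the limits that were applied to the cytokine genes. In that list 3 genes (C1qb, C1qc and Cd5l) were higher and 1 (Ccr2) was lower at an unadjusted p under 0.05, against 10.3% and 6.66% of all genes. Of the neutrophil markers 1 was called lower, against 1.31% of all genes. This was the chemokine receptor gene Cxcr2, at 39.4, 120 and 100 untreated and 7.10, 23.6 and 8.69 after LPS (difference -2.67, adjusted p = 0.094). At an unadjusted p under 0.05, 1 neutrophil marker (Clec4d) was higher and 2 (Csf3r and Cxcr2) were lower. In every LPS sample 1 was higher (Clec4d) and 4 were lower (Csf3r, Cxcr2, Ltf and Il1r2), against 13.1% and 9.75% of all genes. The 8 dendritic cell markers summed to 17.4 to 64.8 and 69.9 to 182, a sum that was higher in every LPS sample. Ccr7, the chemokine receptor of migrating dendritic cells, made up much of it, at 27.1, 2.24 and 3.93 untreated and 104, 33.5 and 125 after LPS. Itgax followed, at 32.4, 13.8 and 26.6 untreated and 63.8, 34.1 and 51.7 after LPS. The difference was positive in 6 of the 8 markers and negative in 2 (Siglech and Xcr1), and positive in 52.9% of all genes. In every LPS sample 3 were higher (Itgax, Ccr7 and Clec9a, the last at 0.744 or less) and 1 was lower (Siglech). The shares of all genes were 13.1% and 9.75%. At an unadjusted p under 0.05, 1 marker (Ccr7) was higher and 1 (Siglech, at 0.144 or less) was lower, against 10.3% and 6.66% of all genes. The mean of Xcr1 was 2.65 untreated and 1.12 after LPS. The 5 mast cell and basophil markers gave 28.5 to 86.1 and 83.3 to 134. Lists of T and NK cells (8 genes), eosinophils (5 genes) and mesothelial and stromal cells (7 genes) summed to at most 17.6, 8.52 and 2.70. Among the macrophage markers in the table, Cd5l and Marco were listed at 0 in untreated sample 2 and Mertk in untreated sample 3, and the eosinophil gene Epx was at 0 in all samples. Fewer cells of a type and less RNA per cell cannot be told apart in these samples, and the part of other cells in the results was not tested.

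After LPS, Csf3, Il10 and Il6 were up-regulated within the limits of the study: a p under 0.01, not adjusted, with a log2 difference above 2. The log2 difference is that of log2(scaled TPM + 1) between LPS and untreated samples, fitted with limma, and the added 1 shrinks it for genes of low level. These 3 of the 10 genes compare with 1.69% of all genes tested, and 0 of the 10 were called lower, against 1.31% of all genes. Of the 9 genes with a mean of at least 1, 3 were called higher, against 4.14% of the 9403 genes at that level. At a Benjamini-Hochberg adjusted p under 0.05, 1 of the 10 was higher in this fit, Csf3, against 0.894% of all genes, and 0 of the 10 were lower, against 0.946%. That count depended on the fit. When only the genes with a mean of at least 1 were fitted, 3 of 9 had an adjusted p under 0.05 and were higher (Csf3, Il6 at 0.036 and Il10 at 0.048), against 5.92% of those genes. Voom is a limma variant made for counts that also rescales each library to its sum. With voom, 9 of the 10 (all but Csf1) had an adjusted p under 0.05 and were higher, against 38.8% of all genes. The paper names edgeR and limma-voom for its own test of read counts. At the limits of the study, voom called 5 of the 10 higher here (Csf3, Il10, Il6, Il12b and Il27), against 1552 of 23049 genes. Voom moved the median difference of all genes from 0.01 to 0.67. In 5 genes, Il6, Il10, Il23a, Il27 and Csf3, the groups did not overlap and LPS was higher, as was so in 13.1% of all genes and in 19.1% of those with a mean of at least 1. In 0 of the 10 was LPS lower without overlap, against 9.75% of all genes. The difference was positive in 9 of the 10 genes and in 52.9% of all genes. Among those with a mean of at least 1 it was positive in 8 of 9 and in 54.2%. The sum of dendritic cell markers was also higher in every LPS sample. Of the 13 macrophage and monocyte markers, 2 (C1qb and Cd5l) were higher in every LPS sample and 2 (Cx3cr1 and Ccr2) were lower. The shares of all genes were 13.1% and 9.75%. The part of other cells in these counts was not tested. The median difference was 1.49 over the 10 genes and 0.01 over all genes.

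**Figure D1:**
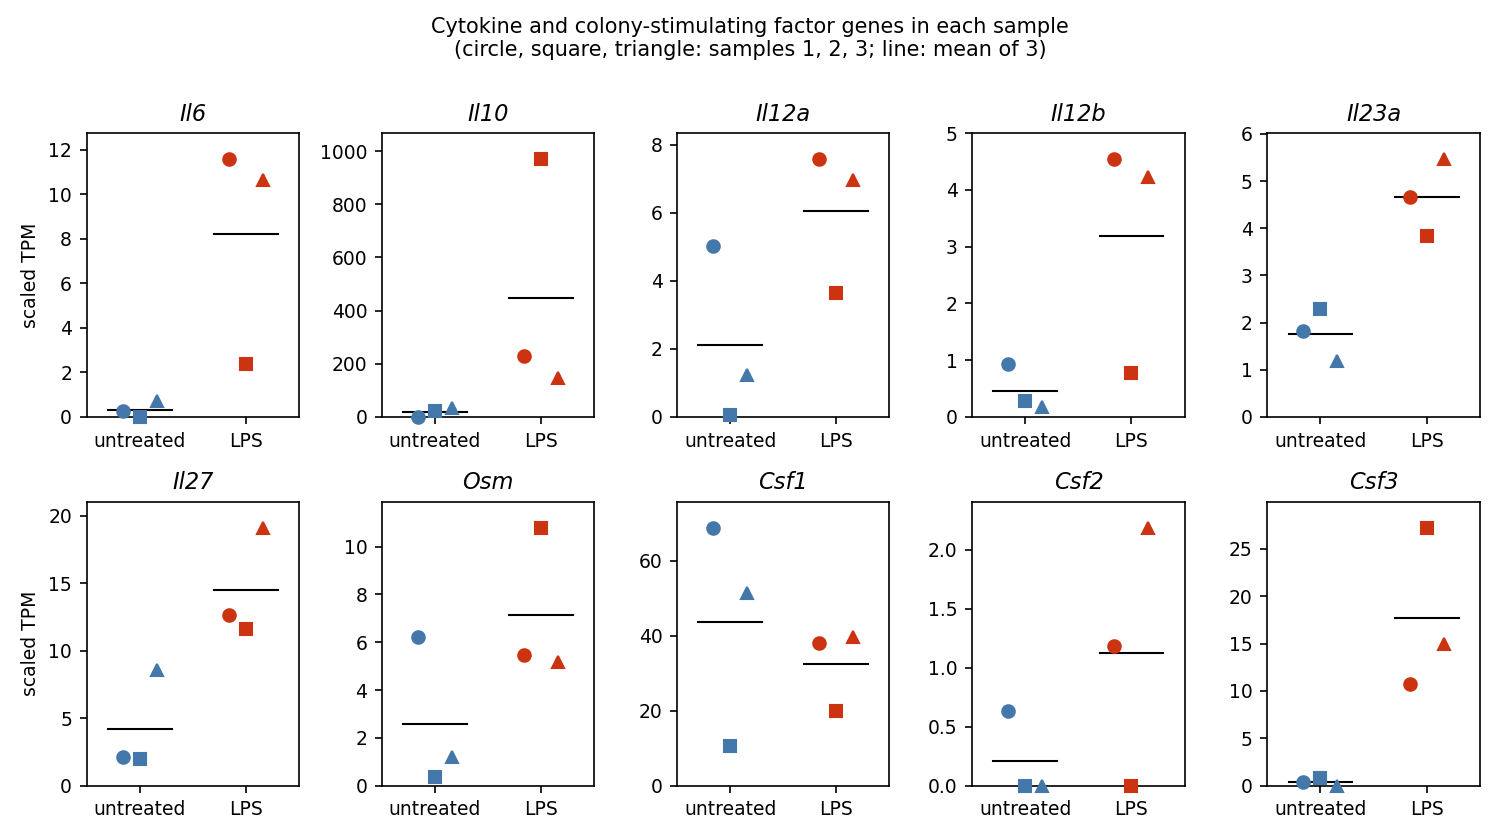
Scaled TPM (vertical axes from 0, 1 scale per gene) of the 10 genes in the 3 untreated (blue) and 3 LPS (red) samples, with circles, squares and triangles for samples 1, 2 and 3 and a line at the mean. LPS sample 2 is the highest LPS sample in Il10, Osm and Csf3 and the lowest in the other genes.

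Csf3, which encodes G-CSF, the factor that drives neutrophil production and release, lies on chromosome 11 (98592089 to 98594458, GRCm39, plus strand). It was listed at 0.424, 0.769 and 0 scaled TPM when untreated and at 10.7, 27.2 and 15.0 after LPS. The groups were far apart, and the lowest LPS value was 13.9 times the highest untreated value. The mean rose from 0.398 ± 0.385 to 17.7 ± 8.58 (SD, n = 3), a ratio of 44.4. Its log2 difference was 3.68 (standard error 0.44, limma adjusted p = 0.023). It passed the limits as each sample was left out, with differences of 3.33 or more. Its adjusted p did not stay under 0.05 without LPS sample 1 (0.126), 2 (0.0634) or 3 (0.154) or without untreated sample 1 (0.0535) or 3 (0.061), and ranged from 0.00131 to 0.154 over the alternatives. The difference was 5.53 with a pseudocount of 0.1 and 2.01 with 5.

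Il10, on chromosome 1 (130947581 to 130952711, plus strand), had the highest values of the 10 genes after LPS as deposited, that is, averaged over transcripts. It was listed at 1.15, 24.2 and 32.1 scaled TPM when untreated and at 230, 970 and 147 after LPS. The groups did not overlap, although each spread widely, with the highest LPS value at 6.61 times the lowest. The means were 19.1 ± 16.1 and 449 ± 453 (SD, n = 3). The log2 difference was 4.72 (standard error 1.24, adjusted p = 0.12, or 0.00627 to 0.280 over the alternatives), with a 95% interval of 1.71 to 7.74. Leaving out untreated sample 3 kept the call (5.45, unadjusted p = 0.00962). It was lost when LPS sample 1 (difference 4.96, unadjusted p = 0.0203), 2 (3.93, 0.0317) or 3 (5.28, 0.0127) was left out, and when untreated sample 1 (3.48, 0.0104) or 2 (5.25, 0.0145) was left out. With a pseudocount of 0.1 it was also lost (5.01, 0.0105). IL-10 acts through a receptor whose binding chain is encoded by Il10ra, which was listed at 4.73, 52.8 and 9.23 when untreated and at 38.6, 50.8 and 44.9 after LPS (adjusted p = 0.38).

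Il6, on chromosome 5 (30218112 to 30224979, plus strand), encodes a cytokine of the acute-phase response. It was listed at 0.246, 0 and 0.728 scaled TPM when untreated and at 11.6, 2.39 and 10.6 after LPS. Each LPS sample exceeded each untreated sample, with LPS sample 2 far below the other LPS samples. The mean rose from 0.325 ± 0.371 to 8.19 ± 5.05 (SD, n = 3), a ratio of 25.2. The difference was 2.61 (standard error 0.59, adjusted p = 0.090, or 0.00457 to 0.291 over the alternatives). Without LPS sample 2 it was 3.23 (unadjusted p = 5.35e-04). The call was lost without LPS sample 1 (2.28, unadjusted p = 0.0191) or 3 (2.34, 0.0201) and without untreated sample 1 (2.59, 0.0149) or 2 (2.43, 0.0163). It was also lost with a pseudocount of 5 (1.22, 0.0107), whereas 0.1 gave a difference of 4.47. Gm42450, which overlaps Il6 on the other strand, was listed at 0.357 or less in every sample. Il6ra, the gene of the IL-6 receptor, had values of 6.24, 52.9 and 25.0 when untreated and 4.09, 11.0 and 5.20 after LPS. These groups overlapped, and the difference was -1.58 (standard error 0.79, adjusted p = 0.37).

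**Figure D2:**
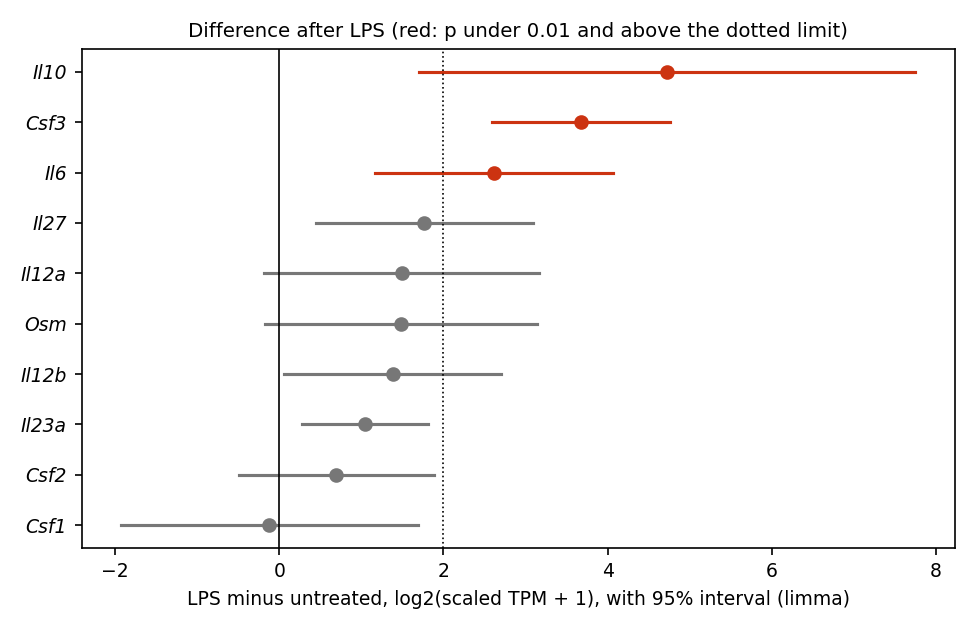
Difference of LPS minus untreated on the log2(scaled TPM + 1) scale (horizontal axis) for the 10 genes, with the 95% interval from limma as a line and the fold limit of 2 dotted. Csf3, Il10 and Il6 (red) passed both limits, and the intervals of Il12a, Osm, Csf2 and Csf1 include 0.

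Among the chains of the IL-12 family, Il23a and Il27 separated the groups without passing the fold limit. Il23a, on chromosome 10 (128132008 to 128134621, minus strand), was listed at 1.81, 2.28 and 1.19 scaled TPM when untreated and at 4.66, 3.84 and 5.47 after LPS. It had the narrowest spread of the 10 genes within the LPS group, 1.42 times from the lowest to the highest. The difference was 1.04 (standard error 0.31, adjusted p = 0.16, or 0.015 with voom). Il27, on chromosome 7 (126188181 to 126194209, minus strand), had values of 2.15, 1.94 and 8.56 when untreated and 12.7, 11.6 and 19.1 after LPS. Untreated sample 3 stood above the other untreated samples. The difference of 1.76 (standard error 0.54, adjusted p = 0.17) became 2.31 (unadjusted p = 0.00108) without that sample and then passed the limits, as it did with voom (2.54, adjusted p = 0.014). Apobr, which overlaps Il27 on the other strand, was listed at 35.0, 123 and 60.5 when untreated and at 26.1, 65.3 and 30.0 after LPS. The libraries were stranded, but whether strand was used in the quantification is not given in the sources used here.

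Il12b, on chromosome 11 (44290808 to 44305505, plus strand), was listed at 0.940, 0.277 and 0.175 scaled TPM when untreated and at 4.55, 0.780 and 4.24 after LPS. LPS samples 1 and 3 lay above all untreated samples, and LPS sample 2 lay within the untreated range. The difference was 1.38 (standard error 0.54, adjusted p = 0.27), and 1.92 (unadjusted p = 0.00527) without LPS sample 2. With voom it was 2.44 (adjusted p = 0.015) and passed the limits. Il12a, on chromosome 3 (68597977 to 68605880, plus strand), had values of 5.02, 0.0488 and 1.24 when untreated and 7.58, 3.63 and 6.96 after LPS. Here untreated sample 1 lay within the range of the LPS samples. The difference was 1.49 (standard error 0.69, adjusted p = 0.33, or 0.039 with voom), and without untreated sample 1 it was 2.15 (unadjusted p = 0.00803) and passed the limits. The receptor genes of this family had low values. Il12rb1 was listed at 0.532 or less, and Il12rb2 at 0.449 or less, in every sample. Il23r, which encodes the chain particular to the IL-23 receptor, was at 0 in the untreated group and at 0.310, 0.142 and 0.230 after LPS (adjusted p = 0.084). Il27ra had values of 0.0398 to 4.25 when untreated and 0.110 to 1.77 after LPS (adjusted p = 0.99).

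Osm, which encodes the gp130 cytokine oncostatin M that neutrophils are known to release, lies on chromosome 11 (4186420 to 4191026, plus strand). It was listed at 6.20, 0.368 and 1.20 scaled TPM when untreated and at 5.45, 10.8 and 5.17 after LPS. The groups overlapped through untreated sample 1. The difference was 1.48 (standard error 0.68, adjusted p = 0.33, or 0.029 with voom), and without untreated sample 1 it was 2.16 (unadjusted p = 0.00499) and passed the limits.

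The 3 colony-stimulating factors differed in level and in difference. Csf1, on chromosome 3 (107648364 to 107667806, minus strand), was listed at 68.9, 10.6 and 51.4 scaled TPM when untreated and at 38.0, 19.9 and 39.5 after LPS. All LPS values lay within the untreated range. The difference was -0.12 (standard error 0.74, adjusted p = 0.94) with a 95% interval of -1.92 to 1.69, which leaves room for a change in either direction. Csf2, on chromosome 11 (54138097 to 54140493, minus strand), was listed at 0.634, 0 and 0 when untreated and at 1.18, 0 and 2.19 after LPS. Its median after LPS was the lowest of the 10 genes, and LPS sample 2 was listed at 0. Its difference was 0.70 (standard error 0.49, adjusted p = 0.54, or 0.047 with voom, 95% interval -0.49 to 1.88). Csf3r, the gene of the G-CSF receptor, was listed at 251, 345 and 525 when untreated and at 138, 233 and 188 after LPS. All LPS values lay below the untreated ones, with a difference of -0.97 (standard error 0.39, adjusted p = 0.28).

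**Figure D3:**
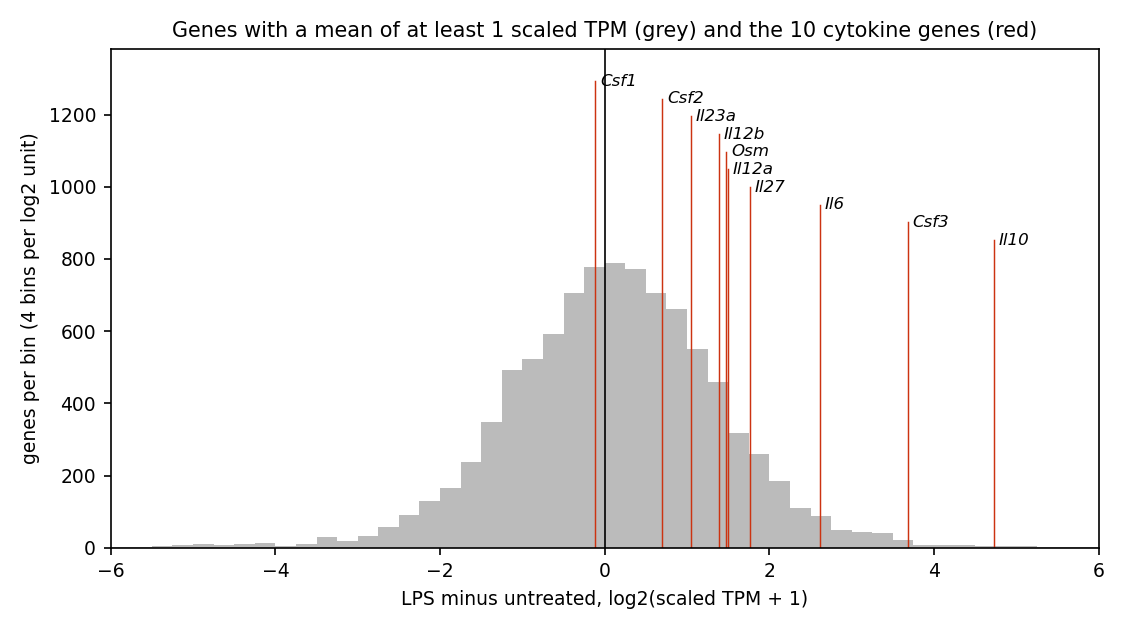
Number of genes (vertical axis) by the difference of LPS minus untreated on the log2(scaled TPM + 1) scale (horizontal axis) for the 9403 genes with a mean of at least 1 (grey), with red lines at the 10 cytokine genes, whose height only places their names (Csf2 has a mean below 1). Csf1 lies near 0, whereas Il6, Csf3 and Il10 lie in the right-hand tail at 2.61, 3.68 and 4.72.

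By median scaled TPM after LPS, the order was Il10 (230), Csf1 (38.0), Csf3 (15.0), Il27 (12.7), Il6 (10.6), Il12a (6.96), Osm (5.45), Il23a (4.66), Il12b (4.24) and Csf2 (1.18). Il10 stood apart from Csf1, and the lowest Il27 value lay just above the highest Il6 value. All other neighbours in this order overlapped in the LPS samples. When untreated, Csf1 (51.4) and Il10 (24.2) led and Il6 (0.246) and Csf2 (0) came last. TPM is a level per length, but averaging over transcripts lowers the value of a gene with many of them. GENCODE M39 lists 11 transcripts for Csf1, 6 for Il12a, 4 for Il6 and 1 for Il10, Il27, Csf2 and Csf3. The untreated sample 3 value of Csf1 has the digits of a mean over 7 transcripts, so that the sum over them would be 7 times as high. Such a sum would put the LPS samples of Csf1 at 266, 139 and 277, with a median above that of Il10 (230). The lead of Il10 by median therefore holds for the averaged values only. In LPS sample 2 Il10 (970) would stay above Csf1, and in LPS samples 1 and 3 it (230 and 147) would lie below.

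The samples numbered 2 stood apart in cell markers. LPS sample 2 had the largest sum of neutrophil markers, 59824 against 21329 and 19139 in LPS samples 1 and 3, and the smallest sums of B cell markers (67.8 against 241 and 227) and dendritic cell markers (69.9 against 172 and 182). It was the lowest LPS sample in 7 genes, Il6, Il12a, Il12b, Il23a, Il27, Csf1 and Csf2, and the highest in 3, Il10, Osm and Csf3. Being highest or lowest was common in that sample, as 80.0% of the genes with a mean of at least 1 showed it. It was lowest in 6 of the 9 cytokine genes at that level and in 41.5% of all such genes. Untreated sample 2 likewise had the largest neutrophil sum of its group (30416) and the smallest B cell (144), macrophage (32.1) and dendritic cell (17.4) sums. It was the lowest untreated sample in Il6, Il12a, Il27, Osm and Csf1, but the share of all genes lowest in that sample was not counted. With samples 1 and 3 of each group alone, chosen after seeing the data, Csf3 and Il6 passed the limits and Il10 did not (difference 4.45, unadjusted p = 0.0458). The part of the markers in these differences was not tested.

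**Figure D4:**
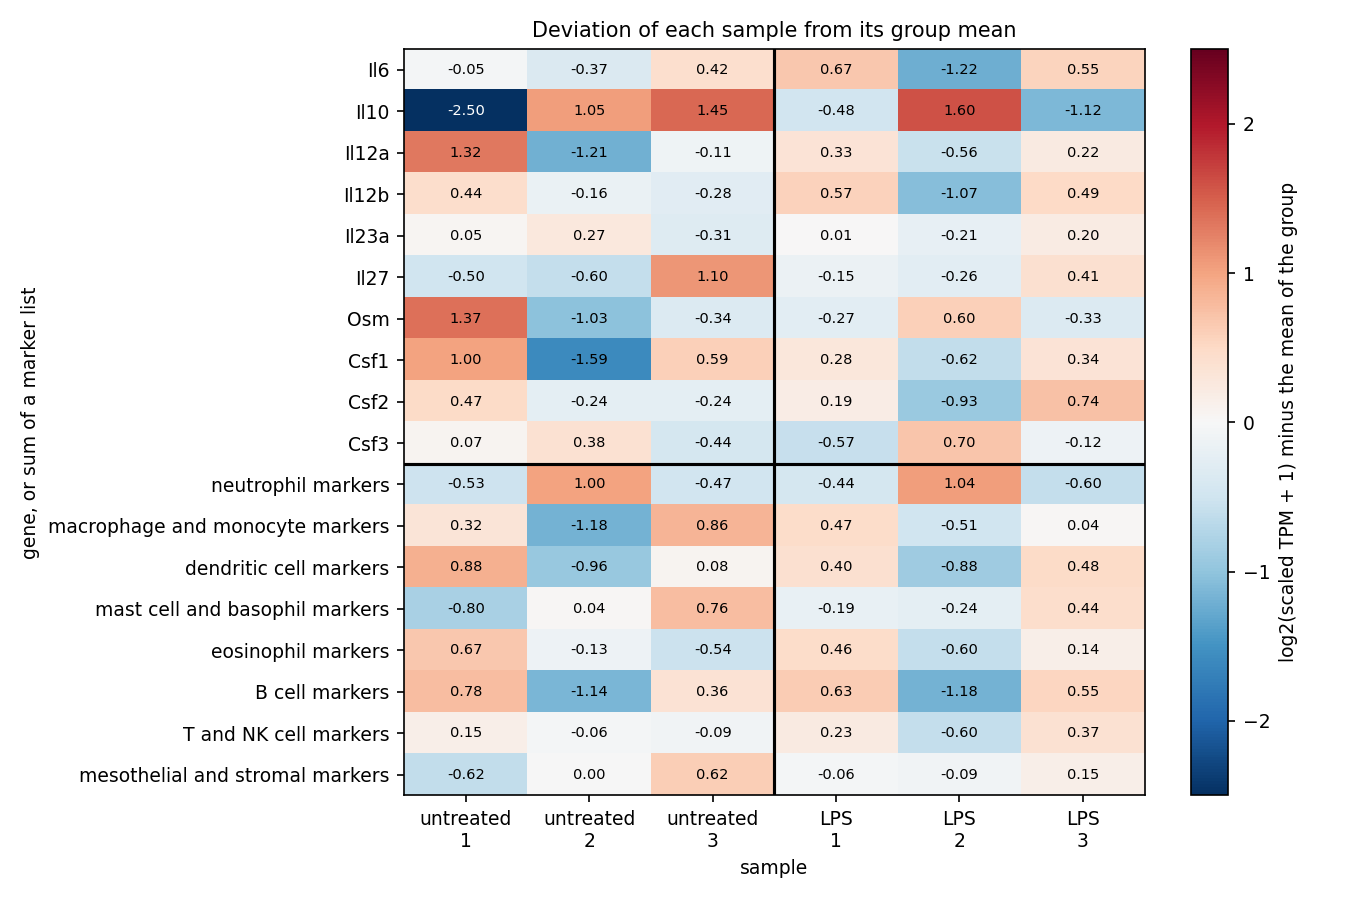
Colour and printed value give log2(scaled TPM + 1) in each sample (columns) minus the mean of its group, for the 10 genes (upper rows) and the summed marker lists (lower rows). In LPS sample 2, Il10 (1.60), Csf3 (0.70), Osm (0.60) and the neutrophil markers (1.04) are above the group mean, and Il6 (-1.22), Il12b (-1.07) and the B cell markers (-1.18) are below it.

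Lists of genes around these cytokines were counted in the same fit. Of 16 other ligands of the same families, 12 were in the table, without Clcf1, Cntf, Ebi3 and Thpo. Of these 12, 0 were called in either direction, and 0 had an unadjusted p under 0.05. At the latter limit 10.3% of all genes were higher and 6.66% lower. No value among the 12 exceeded 1.22 scaled TPM. Of 15 receptor genes 7 were in the table, without Il6st (the gene of gp130), Il10rb, Osmr, Lifr, Csf1r, Csf2ra, Csf2rb and Csf2rb2. Of the 7, 0 were called, against 1.69% of all genes higher and 1.31% lower. At an unadjusted p under 0.05, 1 was higher (Il23r) and 1 lower (Csf3r), against the same 10.3% and 6.66%. Among 15 of 19 JAK, STAT and feedback genes 0 passed the limits, against 1.69% of all genes higher and 1.31% lower. In the list 1 gene was higher at an adjusted p under 0.05, against 0.894% of all genes. The higher gene was Stat5a, which encodes a factor downstream of the GM-CSF receptor. It rose from 4.49, 3.07 and 4.10 to 15.5, 17.1 and 23.0 scaled TPM, a difference of 1.99 (standard error 0.31, adjusted p = 0.041), just under the fold limit. Among 15 of 21 transcription factors known to act on cytokine genes, 4 were called higher, Nfkb1, Rel, Irf5 and Junb, and 0 lower. The shares of all genes were 1.69% and 1.31%. Absent from the table were Nfkb2, Rela, Nfkbiz, Cebpd, Egr1 and Ets2. Of the 15 factors 3 were higher at an adjusted p under 0.05, against 0.894% of all genes, and Rel was not among them (adjusted p = 0.074). Irf5, a factor known to drive Il12b and Il6 in myeloid cells, rose from 1.02, 1.87 and 3.60 to 25.6, 23.3 and 36.8, a difference of 3.28 (standard error 0.41, adjusted p = 0.026). Junb, a subunit of AP-1, rose from 64.2, 92.6 and 55.1 to 292, 553 and 409, a difference of 2.53 (standard error 0.37, adjusted p = 0.037). Among 13 of 16 regulators of cytokine mRNA decay, 1 was called higher and 0 lower, against the same 1.69% and 1.31%. Zc3h12a, whose product Regnase-1 is known to cut Il6 and Il12b messages, rose from 14.7, 37.8 and 40.1 to 190, 295 and 245, a difference of 3.04 (standard error 0.46, adjusted p = 0.040).

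For the 5 cytokine genes whose groups did not overlap, the genes of most similar pattern over the 6 samples were sought among 6390 others, by the correlation of log2(scaled TPM + 1). Csf3 was followed most closely by Llgl1 (r = 0.998), Tnfrsf1b (0.997) and Junb (0.997), and Il23a by Rel (0.996), Trim37 (0.995) and Ift20 (0.989). Il6 was followed by Lsm6 (0.998), Grwd1 (0.997) and Pfas (0.996), all lower in LPS sample 2 than in the other LPS samples. Il10 was followed by Ap1g1 (0.995), Unc119 (0.993) and Pdlim7 (0.990), all highest in that sample. The closest to Il27 were Pced1a (0.995), Trim12a (0.988) and Pttg1 (0.985). The 6 points share the separation by treatment, and the best of many genes was taken, so the values describe likeness alone.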

How the data were processed

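RNA sequencing values of 3 untreated and 3 LPS samples of cGAS-/- neutrophils were analysed, grouped by their titles. The authors trimmed with fastp, mapped to GRCm39 with STAR (mm10 is also listed), quantified with kallisto and normalized by edgeR. The annotation release is not given in the sources used here. The table was deposited under the name of counts, but its values were read as TPM, averaged per gene and rescaled: of 675 values of untreated sample 3 between 1 and 1000 with 13 or more digits, 85.2% became multiples of 1e-07 when multiplied by a whole number of at most 60. A count model was therefore not used. Genes above 0 in at least 1 sample (23049) were fitted with limma 3.58.1 (R 4.3.3; lmFit, eBayes with a trend, two-sided) on log2(value + 1), without covariates, and p-values were adjusted by Benjamini-Hochberg over all of them. Positions and promoters came from GENCODE M39 and GRCm39, and the promoters of Il10 and Csf3 are not reported here. The genes and lists were chosen with earlier results of these data known. Named were all 10 cytokine genes, their receptors (with values where in the table), up to 4 genes of each list that is no marker list, if called or with an adjusted p under 0.05, and the 3 genes most alike to each one whose groups did not overlap. Absent genes of some lists were also named. Marker genes were named after their values were seen. Alternatives were other pseudocounts, filters, scalings and limits, voom, the replicate number as a block, and each sample left out. Samples 1 and 3 of each group alone were added after seeing the data. The methods of the study give another LPS dose and sequencer than the labels.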

Additional observations from a re-analysis of the deposited data

How the results depend on the processing

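Csf3 kept its call under all 19 alternatives, whereas Il10 lost it under 11 and Il6 under 7, and 0 of the 10 genes were called lower under any. The 19 include samples 1 and 3 of each group alone, chosen after seeing the data, where Il10 lost its call. They leave out the block fit at an adjusted p under 0.05, where Csf3 did not pass (limma adjusted p = 0.082). Of the cytokine genes, 3 were called higher as reported, 1 with an adjusted p under 0.05 with or without the fold limit, 5 with voom (adding Il12b and Il27), and 1 to 4 as each sample was left out. Over all genes, 389 higher and 301 lower calls became 206 and 218 at an adjusted p under 0.05, 169 and 189 with the fold limit added, 856 and 493 with a pseudocount of 0.1, 129 and 168 with 5, 1552 and 177 with voom, and 310 and 414 with centring on the median. Leaving out samples gave 260 to 463 higher and 263 to 394 lower calls. The log2 difference of Csf1 changed sign with quantile normalization (0.00598) and voom (0.51), and ranged from -0.91 to 0.38 as samples were left out. Outside the limits of the study, an adjusted p under 0.05 was reached by 3 cytokine genes among genes with a mean of at least 1, by 9 with voom, and by 0 or 1 (Csf3) as each sample was left out. The causes were not tested.

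With the replicate number as a block, 3 cytokine genes were called higher, with 387 higher and 303 lower over all genes, but 0 cytokine genes, 1 gene higher and 15 lower had an adjusted p under 0.05 (Csf3: 0.082). Samples of the same number correlated at 0.0935, 0.199 and 0.0835 in their deviations from the group means, each best with its own number, which is a hint from the data and not from the design. Depth is unknown, so values near 0 cannot be told from absence.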
